A study of Mus musculus with 4 samples.

Results

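The genes of sterol and fatty acid synthesis that are controlled by the sterol regulatory element-binding proteins (SREBPs) were followed in tumour-infiltrating myeloid-derived suppressor cells (MDSCs) with and without a mutated Trem2 gene. The set was fixed by name, with earlier results of these data known. It held 39 of the 17476 genes in the count table: 20 enzymes of sterol synthesis, the sterol carrier gene Stard4, 7 genes of SREBP processing and sensing and 11 genes of fatty acid synthesis. All 39 had reads, and 38 passed the filter on low counts. Me1, which encodes malic enzyme, did not pass and had 1, 4, 3 and 3 reads in the 4 libraries. MDSCs are immature myeloid cells of the granulocyte and monocyte lineages that dampen T cell responses. Trem2 encodes a myeloid receptor that binds lipids.

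There were 2 groups of 2 libraries, WT (WT 1 and WT 2) and Trem2 mutant (Trem2 mutant 1 and Trem2 mutant 3, by the numbers in the column names), both labelled as strain C57BL/6. Per the labels, marrow of either C57BL/6 or Trem2 mutant donors was cultured into MDSCs. The recipients were male, immunodeficient NRG mice that had received TRAMP-C1 mouse prostate cancer cells under the skin at 6 weeks of age. The MDSCs were injected after 4 weeks, the tumours were taken 6 h later and digested, and CD45+, CD11B+, GR1+ cells were sorted. All groups thus shared the host strain, the tumour line and the gate, and the gate names no marker that separates the injected cells from the host's own. Neither the kind of Trem2 mutation nor the sex of the marrow donors was stated in the labels. Whether each library had its own animal or culture was not stated either, so a p-value here reflects the spread between these samples alone, and that spread may be technical.

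Total counts were 8037733 to 10306674 reads per library. Trem2 had 406 and 477 reads in WT and 191 and 195 in the mutant libraries, with a log2 fold change of −1.14 (SE 0.125, edgeR quasi-likelihood test, adjusted p = 0.00157). The gate's own genes were expressed in all 4 libraries: Ptprc (CD45) at 1114 to 1363 CPM (counts per 1e6 reads) and Itgam (CD11B) at 420 to 653 CPM. Ly6g and Ly6c2, whose products carry the GR1 epitopes, stood at 5.66 to 7.22 and 24.8 to 26.9 CPM in WT and at 123 to 144 and 282 to 378 CPM in the mutant libraries. In Trem2 mutant 1 the locus Gm42418, which overlaps ribosomal RNA sequence, took 13.9% of reads, against 0.258% to 1.04% in the other libraries. CPM are scaled by the trimmed mean of M-values (TMM). Scaling by library totals alone moved the median log2 fold change over the tested genes from −0.02 to −0.40.

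Cells make cholesterol from acetyl-CoA through mevalonate, farnesyl diphosphate and squalene, and fatty acids from acetyl-CoA through malonyl-CoA. SREBPs are membrane-bound transcription factors: SCAP escorts them from the endoplasmic reticulum to the Golgi when sterols are low, the proteases S1P (Mbtps1) and S2P (Mbtps2) release them there, and INSIG proteins hold SCAP back when sterols are plentiful. SREBP2, encoded by Srebf2, is known mainly for sterol genes, and SREBP1, encoded by Srebf1, mainly for fatty acid genes.

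The sterol enzymes were higher in the mutant libraries across most of the pathway, and the fatty acid genes had a lower median change, although the changes of the called genes overlapped: Acaca (0.79 on the log2 scale) lay above Mvd (0.76) and Lbr (0.61). Of the 20 sterol enzymes, 14 rose, 0 fell and 6 did not pass the test, with a median log2 fold change of 1.12. Of the 10 fatty acid genes tested, 4 rose, 0 fell and 6 did not pass, with a median of 0.49, and 1 rose when either WT 1 or WT 2 was left out and 6 rose without Trem2 mutant 3. Among the 7 genes of SREBP processing and sensing, 2 rose, 0 fell and 5 did not pass, with a median of −0.01. Over all 14239 genes tested, 9.55% were called higher and 3.6% lower (edgeR quasi-likelihood test, Benjamini-Hochberg adjusted p under 0.05), and the median was −0.02. Under scaling by library totals alone, 12 sterol enzymes rose and 1 fell, 0 fatty acid genes rose, and 1 processing and sensing gene rose and 3 fell, while 650 of all genes were higher and 4365 lower instead of 1360 and 513.

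**Figure D1:**
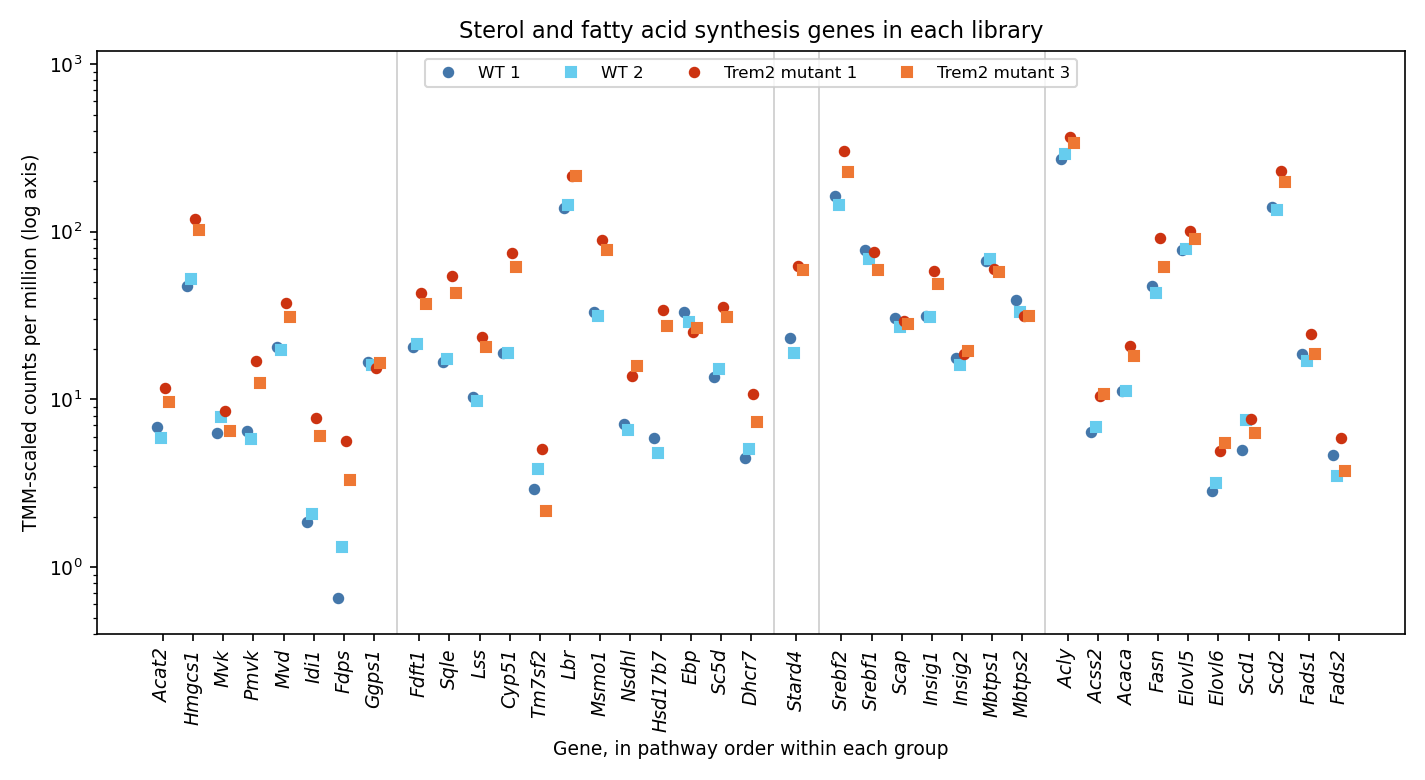
TMM-scaled CPM on a log axis for the 38 tested genes, in pathway order within each group, with 1 point per library (circles and squares for the 2 libraries of each genotype). The mutant libraries lie above both WT libraries for 16 of 20 sterol enzymes and for 7 of 10 fatty acid genes, a pattern shown by 28.9% of all tested genes.

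Promoter windows from RefSeq (GRCm38.p6, 250 bases before to 50 after a gene's start) were on hand for 32 of the 39 genes and were searched on both strands for the letters of 4 motifs known at SREBP-driven promoters. No window was on hand for Sqle, Fdps, Fdft1, Stard4 and Scd2, which were called, or for Scd1 and Fads1, which were not. The sterol regulatory element (SRE) was searched as TCACNCCAC, the E-box as CACGTG, the NF-Y box as CCAAT and the GC box bound by Sp1 as GGGCGG. The letters CCAAT were found in the windows of 16 of 17 sterol enzymes (94.1%), 5 of 8 fatty acid genes (62.5%) and 4 of 7 processing and sensing genes (57.1%), against 42.4% of the 9779 tested genes with a window. GGGCGG was found for 15 of the 17 sterol enzymes (88.2%), 4 of 8 fatty acid genes (50%) and 6 of 7 processing and sensing genes (85.7%), against 66.1% of those tested genes. CACGTG was found for 3 of 17 sterol enzymes (17.6%), 1 of 8 fatty acid genes (12.5%) and 2 of 7 processing and sensing genes (28.6%), against 11.6%. TCACNCCAC was found for Hmgcs1 alone among the 32 genes, against 1.43% of the tested genes, and the shorter CACNCCAC, added after the first search, for 3 of 32 (9.38%), against 7.51%. The 8 fatty acid genes include Me1, which was not tested and whose windows held both the CCAAT and the GGGCGG letters. A gene with several windows was counted if any of them matched. A match describes these letters in this window, not a bound site.

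These stretches were picked, after the values were seen, to set called genes of each group beside uncalled ones: Hmgcs1, Nsdhl and Hsd17b7 are called sterol enzymes, Insig1 and Fasn are called genes of the other groups, and Mvk and Ebp are sterol enzymes that were not called. Each runs 5′ to 3′ on the gene's strand, from 200 bases before the RefSeq start up to that start or to the gene's first annotated exon base, and capitals mark the letters of the 4 motifs on either strand, so CCAAT may appear as ATTGG.
Hmgcs1, chr13:119690151-119690350, plus strand: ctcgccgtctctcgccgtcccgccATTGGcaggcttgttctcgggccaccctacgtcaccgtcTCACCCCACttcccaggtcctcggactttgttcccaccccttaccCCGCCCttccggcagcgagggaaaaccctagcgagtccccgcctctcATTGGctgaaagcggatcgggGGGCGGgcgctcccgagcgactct
Nsdhl, chrX:72918321-72918520, plus strand: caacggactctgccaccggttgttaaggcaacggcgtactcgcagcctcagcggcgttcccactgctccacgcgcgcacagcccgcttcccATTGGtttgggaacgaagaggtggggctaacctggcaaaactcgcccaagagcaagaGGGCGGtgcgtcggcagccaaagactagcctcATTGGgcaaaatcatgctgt
Hsd17b7, chr1:169969242-169969405, minus strand: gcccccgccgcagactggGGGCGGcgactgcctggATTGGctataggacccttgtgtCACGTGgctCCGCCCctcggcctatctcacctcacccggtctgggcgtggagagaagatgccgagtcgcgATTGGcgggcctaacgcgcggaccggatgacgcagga
Insig1, chr5:28071212-28071362, plus strand: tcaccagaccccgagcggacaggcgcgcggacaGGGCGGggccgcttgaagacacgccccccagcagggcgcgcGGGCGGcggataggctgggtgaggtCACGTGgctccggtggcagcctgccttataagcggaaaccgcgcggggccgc
Fasn, chr11:120824548-120824747, minus strand: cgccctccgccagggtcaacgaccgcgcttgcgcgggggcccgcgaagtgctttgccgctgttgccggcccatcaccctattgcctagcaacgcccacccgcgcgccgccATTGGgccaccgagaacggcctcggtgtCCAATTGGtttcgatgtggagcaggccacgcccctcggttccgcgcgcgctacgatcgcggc
Mvk, chr5:114444069-114444268, plus strand: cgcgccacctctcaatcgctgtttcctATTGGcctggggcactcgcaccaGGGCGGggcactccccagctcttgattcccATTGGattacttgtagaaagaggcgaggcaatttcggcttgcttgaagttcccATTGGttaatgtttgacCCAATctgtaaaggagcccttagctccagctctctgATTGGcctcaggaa
Ebp, chrX:8193513-8193712, minus strand: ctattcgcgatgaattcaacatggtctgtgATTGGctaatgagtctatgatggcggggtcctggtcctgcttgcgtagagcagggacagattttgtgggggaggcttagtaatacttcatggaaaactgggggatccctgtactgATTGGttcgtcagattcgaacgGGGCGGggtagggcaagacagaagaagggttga
The Mvk stretch holds the CCAAT letters 5 times and Ebp 2 times, and neither gene was called. The Insig1 stretch holds 0, but its window holds 1 match, 216 bases before the start and so outside the printed stretch. Fasn holds 3 matches, 2 of which overlap.

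At the start of the mevalonate route, Hmgcs1 was higher in the mutant libraries. Hmgcs1 (ENSMUSG00000093930, GRCm38 chromosome 13, 119690379 to 119708260, plus strand) encodes the synthase that makes HMG-CoA. It was measured at 47.4 and 52.1 CPM in WT and at 119 and 102 CPM in the mutant libraries (log2 fold change 1.15, SE 0.105, edgeR adjusted p = 6.68e-04). Both mutant libraries thus lay above both WT libraries, as they did for 28.9% of all tested genes. Acat2, whose enzyme makes acetoacetyl-CoA, lay at 6.85 and 5.91 CPM in WT and 11.7 and 9.67 CPM in the mutant libraries. It missed the threshold (log2 fold change 0.74, 95% interval 0.26 to 1.23, edgeR adjusted p = 0.0556).

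The kinases and the decarboxylase that follow differed among themselves. Mvk, mevalonate kinase, had 6.31 and 7.88 CPM in WT and 8.51 and 6.45 CPM in the mutant libraries, so its groups overlapped (log2 fold change 0.07, 95% interval −0.48 to 0.63). Pmvk, the next kinase, had 6.53 and 5.80 CPM in WT and 16.9 and 12.5 CPM in the mutant libraries (log2 fold change 1.25, SE 0.216, edgeR adjusted p = 0.00999). Mvd, the decarboxylase that yields isopentenyl diphosphate, rose 1.70-fold (edgeR adjusted p = 0.0102). Pmvk was not called without WT 2 (adjusted p = 0.0551), and Mvd was not called without WT 1 (0.0644), without WT 2 (0.0651) or with library totals as the only scaling (0.101).

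The branch-point enzymes of the isoprenoids differed from each other. Idi1, which isomerises isopentenyl diphosphate, had 1.85 and 2.08 CPM in WT and 7.79 and 6.02 CPM in the mutant libraries (log2 fold change 1.80, SE 0.288, edgeR adjusted p = 0.00712). Fdps, which makes farnesyl diphosphate, rested on 6 and 12 reads in WT and 47 and 31 in the mutant libraries (log2 fold change 2.16, SE 0.450, edgeR adjusted p = 0.0198). Both calls were lost without WT 1 (adjusted p = 0.0556 and 0.132). Ggps1 makes geranylgeranyl diphosphate for protein prenylation and lies off the route to sterols. It was measured at 16.8 and 15.98 CPM in WT and 15.5 and 16.4 CPM in the mutant libraries (log2 fold change −0.04, 95% interval −0.36 to 0.29).

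Sequence shared with other annotated genes limits some of these values. Stretches of at least 75 bases with at least 95% identity to other annotated genes covered 91.4% of the Fdps transcript (5 of the 6 matching genes were pseudogenes) and 33.3% of Idi1. They covered 65.6% of Acat2, 64.3% of Acaca, 60.1% of Me1 and 54.7% of Fdft1. The Fdft1 share includes a match to Ctsb, which overlaps Fdft1 at the same locus. How reads that match several places were counted was not stated, so the levels of these genes are uncertain.

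From squalene on, 9 of 12 enzymes rose and 0 fell, with a median log2 fold change of 1.12. Fdft1, squalene synthase, rose 1.92-fold (log2 fold change 0.94, SE 0.122, edgeR adjusted p = 0.00306). Its exons share 774 of 4227 bases with the oppositely oriented Ctsb, which had 46315 reads over the 4 libraries and a log2 fold change of −0.09, and without knowledge of strand reads in that overlap cannot be told apart. Sqle, squalene epoxidase, was measured at 16.8 and 17.4 CPM in WT and 54.4 and 43.3 CPM in the mutant libraries (log2 fold change 1.51, SE 0.1401, edgeR adjusted p = 7.08e-04). Lss, which closes the rings to lanosterol, rose 2.19-fold (edgeR adjusted p = 0.00331).

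Removal of methyl groups from lanosterol is the work of Cyp51, Msmo1, Nsdhl and Hsd17b7, and all 4 genes were higher in the mutant libraries. Cyp51 (ENSMUSG00000001467, GRCm38 chromosome 5, 4081145 to 4104746, minus strand), the lanosterol demethylase, had 18.9 and 19.05 CPM in WT and 75.1 and 61.5 CPM in the mutant libraries (log2 fold change 1.84, SE 0.128, edgeR adjusted p = 2.16e-04). Msmo1, the methylsterol monooxygenase, had 33.4 and 31.4 CPM in WT and 89.4 and 78.1 CPM in the mutant libraries (log2 fold change 1.37, SE 0.105, edgeR adjusted p = 3.39e-04). Nsdhl, the decarboxylating dehydrogenase, had 7.18 and 6.57 CPM in WT and 13.8 and 15.9 CPM in the mutant libraries, a 2.16-fold rise (edgeR adjusted p = 0.00782). For these 3 genes both mutant libraries lay above both WT libraries, as for 28.9% of all tested genes. Trem2 mutant 1 was the highest library for Cyp51 and Msmo1 but not for Nsdhl. It lay above Trem2 mutant 3 for 30 of the 38 tested genes of the set.

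Hsd17b7 had the largest fold change of the 38 genes. Hsd17b7 (ENSMUSG00000026675, GRCm38 chromosome 1, 169949535 to 169969241, minus strand) encodes the ketosteroid reductase of the demethylation steps, and its promoter stretch above holds the E-box letters. These letters were also found for Sc5d and Insig1, which were called, and for Dhcr7, Elovl5 and Scap, which were not. Hsd17b7 had 54 and 44 reads in WT and 286 and 256 in the mutant libraries, or 5.87 and 4.82 CPM against 34.3 and 27.5 CPM. The rise was 5.76-fold (log2 fold change 2.53, SE 0.184, edgeR adjusted p = 2.63e-04), and it was called in each of the 13 alternatives.

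Among the sterol desaturase and reductase genes, Sc5d, the desaturase, rose from 13.6 and 15.1 CPM to 35.8 and 30.8 CPM (log2 fold change 1.21, SE 0.136, edgeR adjusted p = 0.00163). Dhcr7, the reductase that completes cholesterol, had 4.46 and 5.04 CPM in WT and 10.8 and 7.31 CPM in the mutant libraries and missed the threshold (log2 fold change 0.92, 95% interval 0.31 to 1.53, edgeR adjusted p = 0.0570). Lbr and Tm7sf2 encode enzymes for the same reduction step, and the Lbr protein also anchors chromatin at the nuclear envelope. Lbr had 139 and 144 CPM in WT and 215 and 216 CPM in the mutant libraries (log2 fold change 0.61, SE 0.0765, edgeR adjusted p = 0.00266), a call that was lost with library totals as the only scaling (0.211). Tm7sf2 rested on 20 to 42 reads per library and its groups overlapped (95% interval of the log2 fold change −0.90 to 1.04).

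Ebp, the sterol isomerase, did not rise with its neighbours in the pathway. Its level was 33.2 and 28.8 CPM in WT and 25.4 and 26.7 CPM in the mutant libraries (log2 fold change −0.25, 95% interval −0.53 to 0.03, edgeR adjusted p = 0.205). Both mutant values lay below both WT values, a pattern that 31.7% of all tested genes showed, and the fall was called with library totals as the only scaling (adjusted p = 0.0145). Stard4, a carrier that moves cholesterol between membranes, had 23.3 and 18.9 CPM in WT and 62.8 and 59.1 CPM in the mutant libraries (log2 fold change 1.53, SE 0.125, edgeR adjusted p = 4.29e-04).

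**Figure D2:**
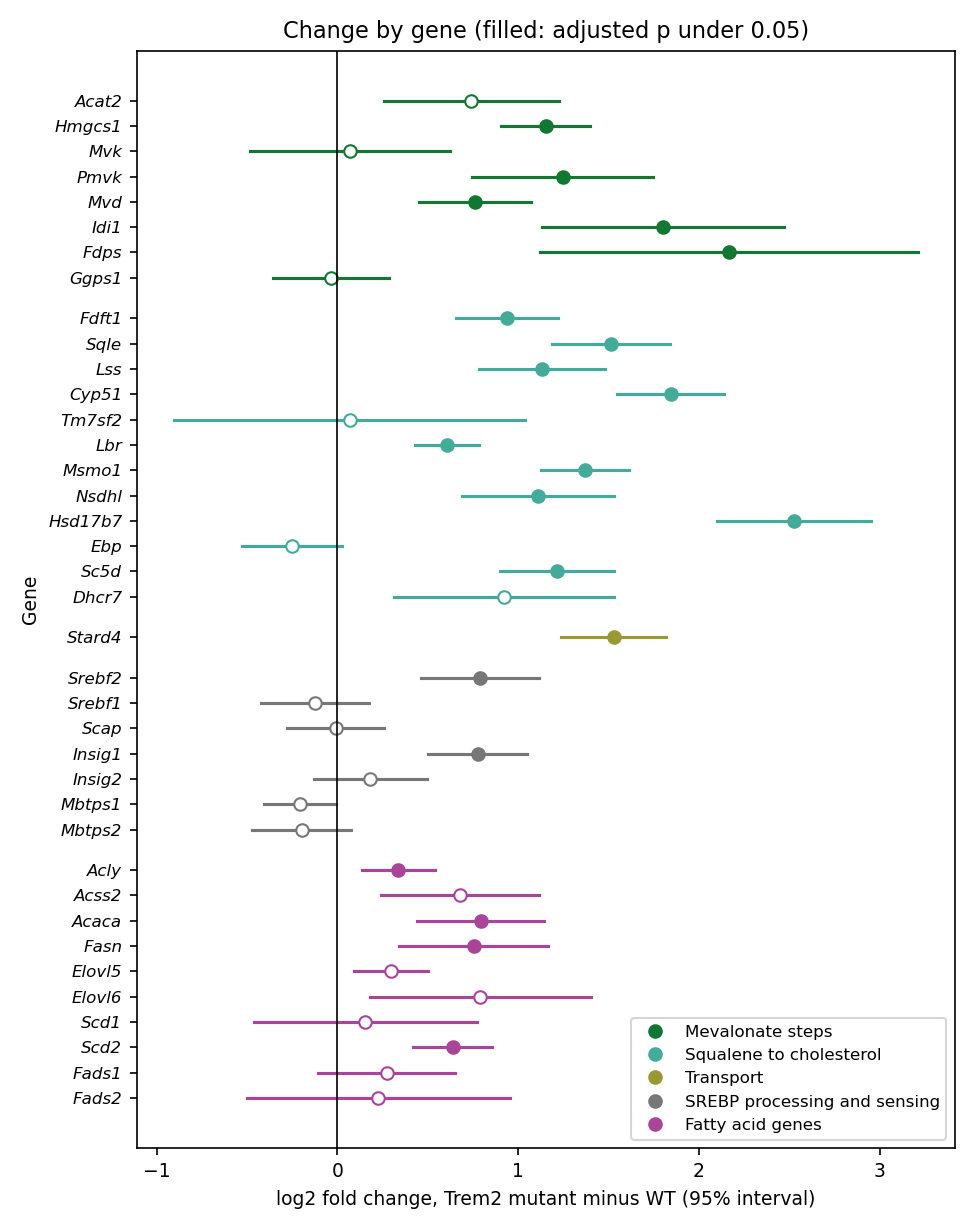
Log2 fold change of each tested gene, mutant minus WT, with its 95% interval from the edgeR fit, coloured by group. Filled points passed the adjusted threshold of 0.05, and open points did not, among them Mvk, Ggps1, Tm7sf2 and Ebp in the sterol pathway and Srebf1 among the regulators.

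Of the genes that control the pathway, Srebf2 and Insig1 rose. Srebf2 (ENSMUSG00000022463, GRCm38 chromosome 15, 82147181 to 82205379, plus strand) had 163 and 145 CPM in WT and 304 and 227 CPM in the mutant libraries (log2 fold change 0.79, SE 0.1401, edgeR adjusted p = 0.0109). Its call was lost without WT 2 (log2 fold change 0.70, adjusted p = 0.0640). Insig1, which holds SCAP in the endoplasmic reticulum and is itself a known SREBP target, had 31.5 and 31.0 CPM in WT and 58.5 and 48.8 CPM in the mutant libraries (log2 fold change 0.78, SE 0.118, edgeR adjusted p = 0.00568). With library totals as the only scaling its call was lost (adjusted p = 0.0722).

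The other regulators did not pass the test. Srebf1 had 78.0 and 69.1 CPM in WT and 75.8 and 59.3 CPM in the mutant libraries (log2 fold change −0.12, 95% interval −0.42 to 0.18). Scap was measured at 30.7 and 27.1 CPM in WT and 29.2 and 28.3 CPM in the mutant libraries, with an interval of −0.28 to 0.26. Insig2, the second INSIG gene, had an interval of −0.13 to 0.50. The protease genes Mbtps1 and Mbtps2 had log2 fold changes of −0.20 each, with intervals of −0.40 to −0.01 and −0.47 to 0.08 (edgeR adjusted p = 0.157 and 0.302). Scaled by library totals alone, Srebf1, Mbtps1 and Mbtps2 were called lower (adjusted p = 0.0177, 0.00971 and 0.0198).

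Ratios of related genes within a library do not depend on how libraries are scaled. The level per length of Srebf2 relative to Srebf1 was 1.64 in WT 1 and WT 2, 3.15 and 2.999 in Trem2 mutant 1 and Trem2 mutant 3. Insig1 relative to Insig2 stood at 2.01 and 2.18 in WT and 3.51 and 2.82 in the mutant libraries. For both pairs the genotypes did not overlap. The gap between genotypes far exceeded the spread within each for Srebf2 and Srebf1, but for Insig1 and Insig2 the mutant libraries differed from each other by more than the nearest WT and mutant values did. Scd2 relative to Scd1 was 25.2 and 16.1 in WT and 27.0 and 28.1 in the mutant libraries, with a spread within WT larger than the gap to the mutant libraries. These ratios were not tested.

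**Figure D3:**
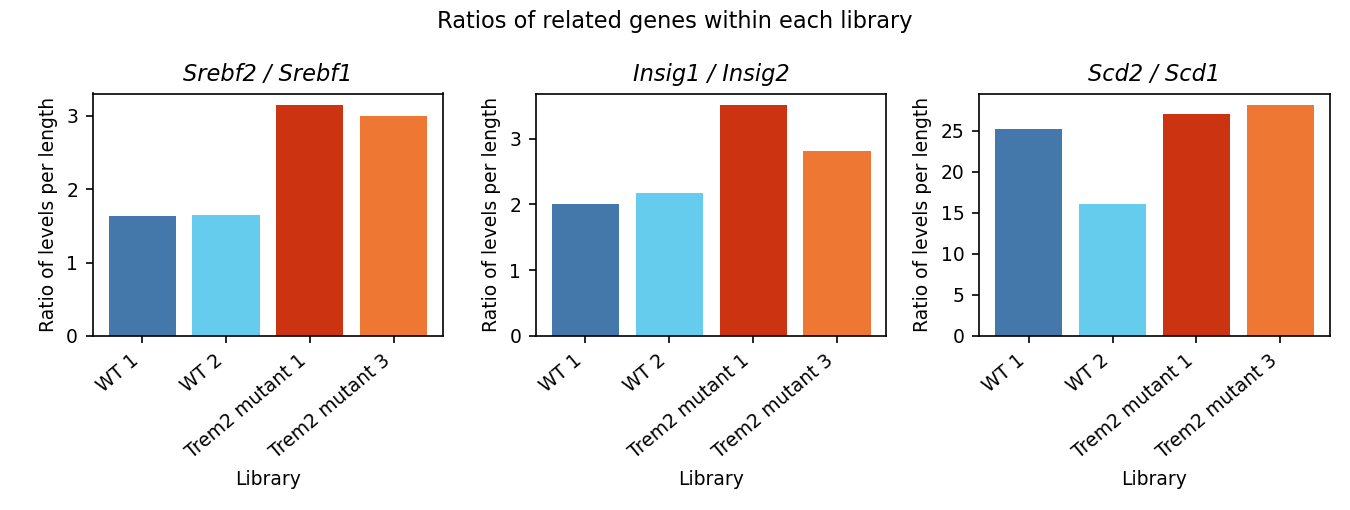
Bars give the ratio of levels per length of Srebf2 to Srebf1, Insig1 to Insig2 and Scd2 to Scd1 in each of the 4 libraries, from 0. For Srebf2 to Srebf1 the bars stand at 1.64 for each WT library and at 3.15 and 2.999 for the mutants, while the WT bars of the third differ from each other.

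In fatty acid synthesis, the enzymes of the core route rose by less than 2-fold. Acly, ATP citrate lyase, which makes cytosolic acetyl-CoA, had 271 and 290 CPM in WT and 369 and 340 CPM in the mutant libraries (log2 fold change 0.34, SE 0.0878, edgeR adjusted p = 0.0434). Acaca, which makes malonyl-CoA, had 11.2 and 11.3 CPM in WT and 20.8 and 18.2 CPM in the mutant libraries (log2 fold change 0.79, SE 0.151, edgeR adjusted p = 0.0142). Fasn, fatty acid synthase, had 47.8 and 43.2 CPM in WT and 92.1 and 61.7 CPM in the mutant libraries (log2 fold change 0.75, SE 0.177, edgeR adjusted p = 0.0309). Trem2 mutant 1 was 1.49 times Trem2 mutant 3 for Fasn, but both lay above both WT libraries. Acss2, which makes acetyl-CoA from acetate, had a log2 fold change of 0.68 and missed the threshold (95% interval 0.24 to 1.11, edgeR adjusted p = 0.0539).

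Scd2 was the desaturase gene that rose. Scd2 (ENSMUSG00000025203, GRCm38 chromosome 19, 44293674 to 44306864, plus strand), a stearoyl-CoA desaturase, had 141 and 136 CPM in WT and 231 and 199 CPM in the mutant libraries (log2 fold change 0.64, SE 0.0947, edgeR adjusted p = 0.00519). Its relative Scd1 had 5.004 and 7.55 CPM in WT and 7.67 and 6.34 CPM in the mutant libraries, so its groups overlapped. The elongase genes Elovl5 and Elovl6 had log2 fold changes of 0.30 and 0.79 with adjusted p of 0.0640 and 0.0903 (edgeR), and the desaturase genes of polyunsaturated fatty acids Fads1 and Fads2 had 0.27 and 0.23 with intervals that include 0. The calls of Acaca and Fasn were lost without WT 1 (adjusted p = 0.0954 and 0.103) and without WT 2 (0.0746 and 0.131), and that of Acly without WT 1, WT 2 or Trem2 mutant 1 and under upper quartile scaling (0.312, 0.146, 0.0630 and 0.0652). Acly, Acaca, Fasn and Scd2 were not called with library totals as the only scaling (adjusted p 0.0918 to 0.848).

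Set side by side, the sterol arm stood further above WT than the fatty acid arm in each mutant library. The median log2 ratio to the WT mean was 1.15 over the sterol enzymes and 0.56 over the fatty acid genes in Trem2 mutant 1, and 0.98 and 0.36 in Trem2 mutant 3. Summed over its genes, the sterol arm had 413 and 418 CPM in WT and 849 and 754 CPM in the mutant libraries, and the fatty acid arm 587 and 596 CPM against 868 and 755 CPM. The ratio of the sums, which does not depend on scaling, was 0.705 and 0.700 in WT and 0.978 and 0.999 in the mutant libraries. At least a 2-fold rise was called for 11 sterol enzymes and 0 fatty acid genes. Of the 14 sterol enzymes called, 9 were called in every alternative (Hmgcs1, Fdft1, Sqle, Lss, Cyp51, Msmo1, Nsdhl, Hsd17b7 and Sc5d), and of the 4 fatty acid genes 0 were. The difference between the arms was not tested, because the genes were chosen with results of these data known.

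**Figure D4:**
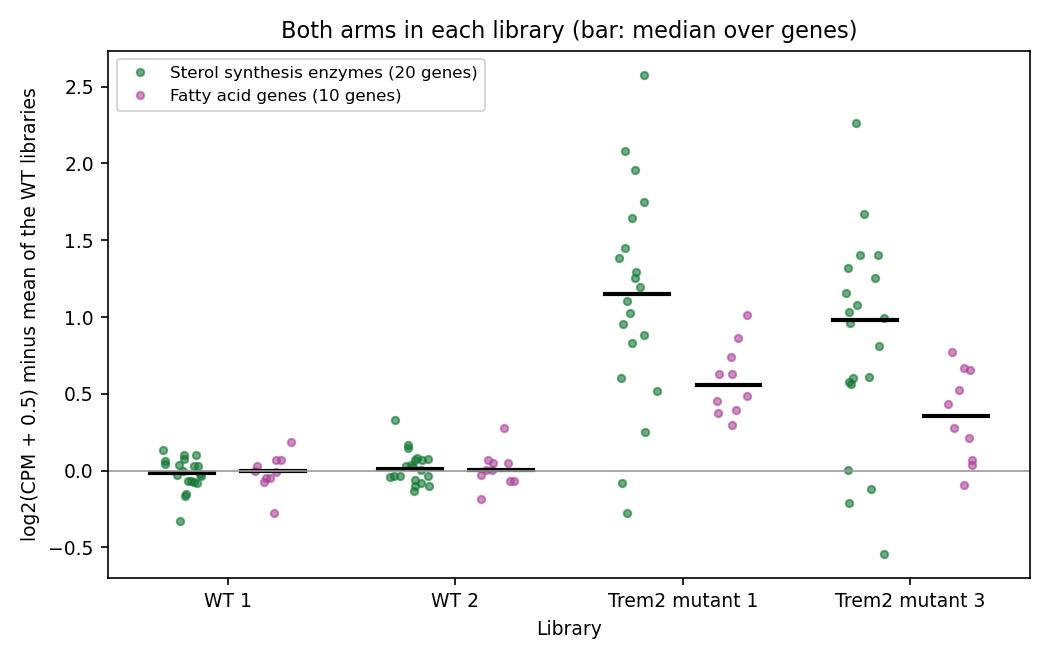
Each point is a gene's log2(CPM + 0.5) in a library minus its mean over the WT libraries, for 20 sterol enzymes and 10 fatty acid genes, and the bars are medians. In both mutant libraries the sterol bar (1.15 and 0.98) lies above the fatty acid bar (0.56 and 0.36).

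Per length of exon, the most abundant transcripts of the set came from the fatty acid, sterol and regulator groups. In RPKM, the CPM divided by exon length in kilobases, Acly had the highest level in every library (51.4 and 54.9 in WT, 69.9 and 64.4 in the mutant libraries). Lbr (29.2 and 30.1), Scd2 (25.8 and 24.8), Elovl5 (22.1 and 22.3) and Srebf2 (22.7 and 20.1) followed in WT, and Elovl5 and Srebf2 overlapped there. Hmgcs1 (10.3 and 11.3), Mvd (11.1 and 10.6) and Insig1 (10.2 and 10.02) lay close together in WT. At the low end, Fdps, Elovl6 and Idi1 were below 0.6 RPKM in each WT library. Cyp51 moved from 4.29 and 4.31 to 17.0 and 13.9 RPKM, and Hsd17b7 from 1.15 and 0.944 to 6.71 and 5.39 RPKM. Lengths are of all annotated exons, so genes with long rarely used exons are understated.

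Genes around the pathway gave smaller counts. They are to be read beside the 9.55% of all tested genes called higher and the 3.6% called lower. Among 8 genes of endoplasmic reticulum proteins that bind or degrade INSIG and sterol enzymes, 0 rose and 1 fell, Aup1 (log2 fold change −0.49). Of 10 genes of the COPII coat, which carries SCAP and SREBP to the Golgi, 0 passed the test in either direction (median 0.13, 0.0531 as the lowest edgeR adjusted p). Of 12 genes that use isoprenoids, 0 rose and 1 fell, the dolichol kinase gene Dolk (log2 fold change −0.75), with a median of −0.21. Of 20 tested genes of acyl-CoA and glycerolipid synthesis, 2 rose, close to the share of all tested genes called higher, and 0 fell. Those that rose were Dgat2, which completes triglycerides (log2 fold change 1.04, SE 0.0945, edgeR adjusted p = 6.57e-04), and Acsl4 (0.46).

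NADPH is consumed by both arms, and 3 of 7 genes of its supply rose and 0 fell. Over all genes tested, 9.55% were called higher and 3.6% lower. G6pdx, glucose-6-phosphate dehydrogenase, had a log2 fold change of 0.79 (SE 0.0898, edgeR adjusted p = 0.00169), Tkt 0.80 and Pgd 0.55. Among 11 tested genes of sterol storage and transport, 2 rose and 1 fell. Stard5, a sterol-binding relative of Stard4, rose 1.98-fold (edgeR adjusted p = 8.38e-04), Gramd1b had a log2 fold change of 0.33, and Lipa, the lysosomal lipase, fell by 0.30 on the log2 scale. Of 9 LXR receptor and target genes, 2 rose and 3 fell. The lipoprotein gene Apoe (log2 fold change 0.91) and the phospholipid acyltransferase gene Lpcat3 (0.47) rose, and Mylip (−0.63), the sterol exporter gene Abcg1 (−0.52) and the receptor gene Nr1h3 (−1.94, from 4 to 32 reads per library) fell.

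Several markers of cell types, including the granulocyte and monocyte lineages of MDSCs themselves, moved with genotype in the same libraries. Over all tested genes, 9.55% were called higher and 3.6% lower. Of 15 genes on the list for immature granulocyte granules, 13 rose, with summed levels of 2483 to 2667 CPM in WT and 15170 to 20936 CPM in the mutant libraries. This list includes Ly6g, and the monocyte list includes Ly6c2 and Itgam, which are genes of the gate's own markers. Of 10 mature neutrophil genes, 8 rose (7578 to 7810 against 20752 to 21740 CPM). In the monocyte list 6 of 10 rose (5729 to 5957 against 6027 to 6730 CPM), and in the macrophage list 5 of 10 (934 to 1019 against 959 to 1217 CPM). Eosinophil genes rose in 4 of 4 tested (70.8 to 71.4 against 152 to 194 CPM), and Ear1 had 0 reads in both WT libraries. Fibroblast genes rose in 4 of 6 tested (110 to 160 against 403 to 449 CPM), although the gate was on CD45. Genes of cycling cells rose in 2 of 12 (293 to 307 against 331 to 433 CPM), and their median log2 ratio to the WT mean was 0.59 in Trem2 mutant 1 and −0.05 in Trem2 mutant 3, while that of the sterol enzymes was 1.15 and 0.98. Of the other lists, endothelial genes rose in 1 of 2 tested, lymphocyte genes in 0 of 4, and in the epithelial list 0 of 2 rose and 1 fell. The epithelial gene that fell was Cdh1, with 1385 and 1447 reads in WT and 689 and 791 in the mutant libraries (log2 fold change −0.88, edgeR adjusted p = 6.35e-04), while Krt8 of the same list had 0 to 5 reads per library. The adipocyte marker Fabp4 had 0 to 10 reads. In bulk samples a change in the share of a cell type and a change in RNA per cell cannot be told apart, and the part of these cells in the sterol result was not tested.

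The mutant libraries also carried Xist, the RNA of the inactive X chromosome, at 6928 and 9117 reads, against 2 and 3 reads in WT, so that sex and genotype cannot be told apart. Of the 3 X-linked genes of the set, Nsdhl rose, while Ebp and Mbtps2 did not pass the test. Among the 18 autosomal sterol enzymes 13 rose and 0 fell.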

How the data were processed

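The authors deposited unnormalized counts, 1 value per Ensembl gene and library, for 4 RNA-seq libraries prepared from ribosome-depleted total RNA per the labels' protocols. The tools named in the submitters' processing notes are STAR 2.5.2a, FastQC and DESeq2, and the build is GRCm38 (mm10). What counted the reads, with which strand setting and annotation, was not stated in these notes. No gene had fewer than 11 reads in all. GENCODE M21 named 17422 of 17476 IDs and gave positions and exon lengths. The column numbered 3 matches no label and was used as a mutant library without a number.

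Counts were fitted in R 4.3.3 with edgeR 4.0.16: filterByExpr (14239 genes kept), TMM scaling, glmQLFit in its default form and a two-sided glmQLFTest of mutant against WT, with Benjamini-Hochberg adjustment over all genes and a threshold of 0.05. Residual and prior degrees of freedom were 2 and 5.71. SE is the log2 fold change over the root of F, and intervals are at 95%. As a check for a repeated deposit of 1 library, the median squared difference within pairs, scaled by library totals, was 2.01 (WT) and 6.20 (mutant) times sampling noise. The mutant value includes the differing share of Gm42418 and does not show that the libraries are separate biological replicates. A floor of 3 counts was 0.322 to 0.359 CPM. Log ratios per library used a pseudocount of 0.5 CPM.

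Alternatives were RLE, upper-quartile and library-total scaling, no filter, a stricter filter (10 reads in 2 libraries and a mean of 1 CPM), DESeq2 1.42.0, limma-voom (limma 3.58.1), the bias-adjusted glmQLFit, leaving out genes not classed as protein-coding and mitochondrial genes, and leaving out each library. On counts simulated for 13944 genes, 66 of 98 genes with a 2-fold change were recovered, and 96 of 96 with a 4-fold change, with 6 false calls among 168. Equal numbers of genes were set to rise and to fall there, with dispersions from the fitted trend, unlike the uneven calls in the data. These rates may therefore not hold for this comparison. The genes and lists were chosen with earlier results of these data known. Named genes are the 39 members, Trem2, Xist and at most 3 genes per further list by lowest p. Nr1h3, Lpcat3, Gm42418, Ctsb, Ptprc and some marker genes were named after their values were seen.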

Additional observations from a re-analysis of the deposited data

How the results depend on the processing

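No paired analysis was possible because the columns compared share fewer than 2 replicate numbers. With library totals as the only scaling, 650 genes were higher and 4365 lower, 1 sterol enzyme fell, 0 fatty acid genes rose, and 1 processing and sensing gene rose and 3 fell. The medians were then 0.75 for the sterol enzymes and 0.11 for the fatty acid genes, and the uncalled genes turned direction for Mvk (−0.31), Tm7sf2 (−0.33), Insig2 (−0.19), Elovl5 (−0.081), Scd1 (−0.22), Fads1 (−0.11) and Fads2 (−0.16), as did the called gene Acly (−0.039). Without a filter, which adds Me1, the fatty acid median was 0.34 and the sterol median minus it 0.78. DESeq2 called 198 genes lower. Scap was at 0.0070 with RLE and 0.0073 with DESeq2, and Tm7sf2 at −0.054 with limma-voom. Over the fits without 1 library, values on either side of 0 were given by Mvk (−0.13 to 0.28), Ggps1 (−0.071 to 0.016), Tm7sf2 (−0.64 to 0.59), Srebf1 (−0.30 to 0.063), Scap (−0.095 to 0.082), Scd1 (−0.11 to 0.48) and Fads2 (−0.11 to 0.54). The cause of these turns was not tested. When libraries were left out, genes called higher numbered 489 without WT 1, 719 without WT 2 and 2090 without Trem2 mutant 3, and genes called lower 92, 129 and 912, 11 to 16 sterol enzymes, 1 to 6 fatty acid genes and 1 (without WT 2) to 2 processing and sensing genes rose, and 0 fell in each of these 3 groups. The sterol median ranged from 1.03 to 1.22, the fatty acid median from 0.37 to 0.61 and their difference from 0.53 to 0.66. With 2 libraries per group, low counts limit Fdps, Idi1, Tm7sf2, Fads2 and Me1, among others.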
